A study of Rattus norvegicus with 24 samples.

Results

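The genes described here are 8 negative regulators of the ERK pathway: the dual-specificity phosphatases Dusp1, Dusp4, Dusp5 and Dusp6, the Sprouty genes Spry2 and Spry4, and the Sprouty-related genes Spred1 and Spred2. They were taken by gene name from the 36174 gene names on the array, and 11 probes on 21 spots per array measured them. They were read in the left dorsal striatum of male Long Evans rats aged 80 to 90 days. All rats received 5 daily intraperitoneal injections and were killed 24 h after the last. The saline group had saline on all 5 days, the acute group had saline on 4 days and then 1 mg/kg MDPV (methylenedioxypyrovalerone, a synthetic cathinone that blocks dopamine and noradrenaline uptake) on day 5, and the chronic group had 1 mg/kg MDPV on all 5 days. Each group had 8 one-colour arrays. The series states 6 animals per group, and in each group 4 of the array titles carry only 2 different letters. Same-letter arrays were therefore combined by their mean, giving 6 units a group and 18 in all. The labels do not say what a shared letter means, and nothing beyond it ties arrays to animals, so the p-values measure the spread between these units.

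ERK is the terminal kinase of the Ras, Raf and MEK cascade, through which growth factor receptors, glutamate receptors and, in striatal projection neurons, dopamine D1 receptors reach the nucleus. Active ERK switches on genes that then limit it. Dual-specificity phosphatases remove phosphates from the kinase itself: Dusp1, Dusp4 and Dusp5 are nuclear and inducible, Dusp5 acts on ERK in particular, and Dusp6 is the cytoplasmic ERK phosphatase. Sprouty and Spred proteins act further up, between the receptor and Raf. Several of these transcripts rise and fall within hours of a stimulus in neurons.

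The upstream sequence of these genes is shown first, because induced genes of this kind carry binding motifs there and because some of them moved together across the arrays. RefSeq's promoter table for the GRCr8 assembly held 7 of the 8 genes, Dusp4 being the gene without an entry. The 250 bases before the annotated start are printed 5′ to 3′ for the 4 genes in the member pairs whose correlation passed, described below. The letters TGACG, the core of the cyclic AMP response element, are in capitals on either strand (CGTCA when on the other strand). For Spry2 the first of its annotated starts is shown.
Dusp1 (chr10:17184603-17184852, plus strand): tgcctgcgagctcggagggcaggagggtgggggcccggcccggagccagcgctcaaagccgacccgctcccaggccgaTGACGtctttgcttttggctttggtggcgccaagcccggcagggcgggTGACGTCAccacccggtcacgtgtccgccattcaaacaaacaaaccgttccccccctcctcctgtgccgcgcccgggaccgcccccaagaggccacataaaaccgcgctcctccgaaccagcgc
Dusp5 (chr1:262543524-262543773, plus strand): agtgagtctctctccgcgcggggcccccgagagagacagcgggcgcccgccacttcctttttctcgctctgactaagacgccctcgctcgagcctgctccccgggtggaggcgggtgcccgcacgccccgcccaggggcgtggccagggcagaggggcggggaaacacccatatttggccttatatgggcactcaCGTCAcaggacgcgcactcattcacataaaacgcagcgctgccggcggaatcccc
Spry2 (chr15:89111927-89112176, minus strand): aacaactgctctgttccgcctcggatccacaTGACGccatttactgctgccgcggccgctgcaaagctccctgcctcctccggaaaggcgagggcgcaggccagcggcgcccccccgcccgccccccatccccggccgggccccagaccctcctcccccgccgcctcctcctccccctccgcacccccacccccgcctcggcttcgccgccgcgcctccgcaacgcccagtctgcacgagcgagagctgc
Spred1 (chr3:124436980-124437229, plus strand): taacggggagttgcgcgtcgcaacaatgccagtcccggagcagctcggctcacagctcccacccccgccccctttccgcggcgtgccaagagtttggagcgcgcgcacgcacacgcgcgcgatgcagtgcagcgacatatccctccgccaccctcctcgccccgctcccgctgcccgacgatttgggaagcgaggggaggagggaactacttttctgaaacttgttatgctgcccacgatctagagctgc

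The full palindrome TGACGTCA lay in the Dusp1 sequence, 124 to 117 bases before the start, and in no other of the 7 genes. It was found in 1.59% of 33469 promoters of the same length. TGACG alone, searched on both strands and including its copies within the palindrome, was in 4 of the 7 genes (Dusp1, Dusp5, Spry2 and Spred2) and in 18.2% of all promoters. Dusp5 carried 2 CArG boxes, the serum response factor motif, at 82 to 73 and at 72 to 63 bases before its start. This motif was in 1.497% of all promoters and in no other member. The SP1 letters GGGCGG were in 6 of the 7 genes, all but Dusp6, against 30.5% of all promoters, and the ETS core CCGGAA was in Spry2 and Spry4, against 12.6%. The AP-1 letters TGANTCA, the EGR letters GCGGGGGCG and TATAAA were in none of the 7. All motifs were searched on both strands, and a match is a description of letters in this window.

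The share of the 58717 spots well above background ran from 50.7% on saline replicate 3 to 71.3% on saline replicate 5. No spot was saturated. Values below are the log2 processed signal minus the 75th percentile of the same array, so a negative level lies under that percentile. Levels are compared within a probe and never between genes. Striatal markers were bright on all 24 arrays, with Ppp1r1b, Drd1 and Drd2 each well above background throughout. Saline replicate 4 stood apart in several marker lists. It was the lowest array for Ppp1r1b (3.12 against a median of 4.61), Drd1 and Drd2, and the lowest unit of the pan-striatal list. Its hypothalamic list stood at 0.39 where no acute or chronic unit was above -3.23. Its thalamic, septal and pallidal list stood at -0.18, and no other unit was above -1.65. It was also the lowest unit of the cortical list, at -4.52. Other arrays departed too. Saline replicate 5 and chronic replicate 8 stood at -5.15 and -4.92 in the cortical list. In the choroid plexus and ependymal list they stood at -0.17 and -0.12. Acute replicate 8 stood at -2.65 in the hypothalamic list. Each of these was averaged with the other array of its letter. Among markers of other cells and tissue, the choroid plexus gene Ttr ran from -5.60 to 6.33 and the cortical Slc17a7 from -8.46 to -2.51, while Gja1 (astrocytes), Mbp (myelin), Pdgfra (precursors) and Cldn5 (endothelium) stayed within 0.92, 0.94, 0.59 and 0.62 of their own lowest array. Many of the results that lean on saline replicate 4 are also given without it, but not all. In bulk tissue, fewer cells of a type and less RNA per cell cannot be told apart.

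No gene on the array passed an adjusted p of 0.05 in limma with Benjamini-Hochberg adjustment, in any of the 3 comparisons: 0 of 20902 genes were called in each (0%). Before adjustment, 340 genes had p below 0.05 for acute against saline (1.63%), 597 for chronic against saline (2.86%) and 504 for chronic against acute (2.41%). Of the 8 genes, 7 were tested, Dusp4 having failed the filter on dim probes. None of the 7 was called in any comparison. At the unadjusted level there was 1, Dusp1 in chronic against saline. No member separated the groups without overlap in any comparison, and very few genes did. Of all 20902 genes, 7 did so for acute against saline, 12 for chronic against saline and 41 for chronic against acute. The absence of members among them is therefore no trait of these genes.

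**Figure D1:**
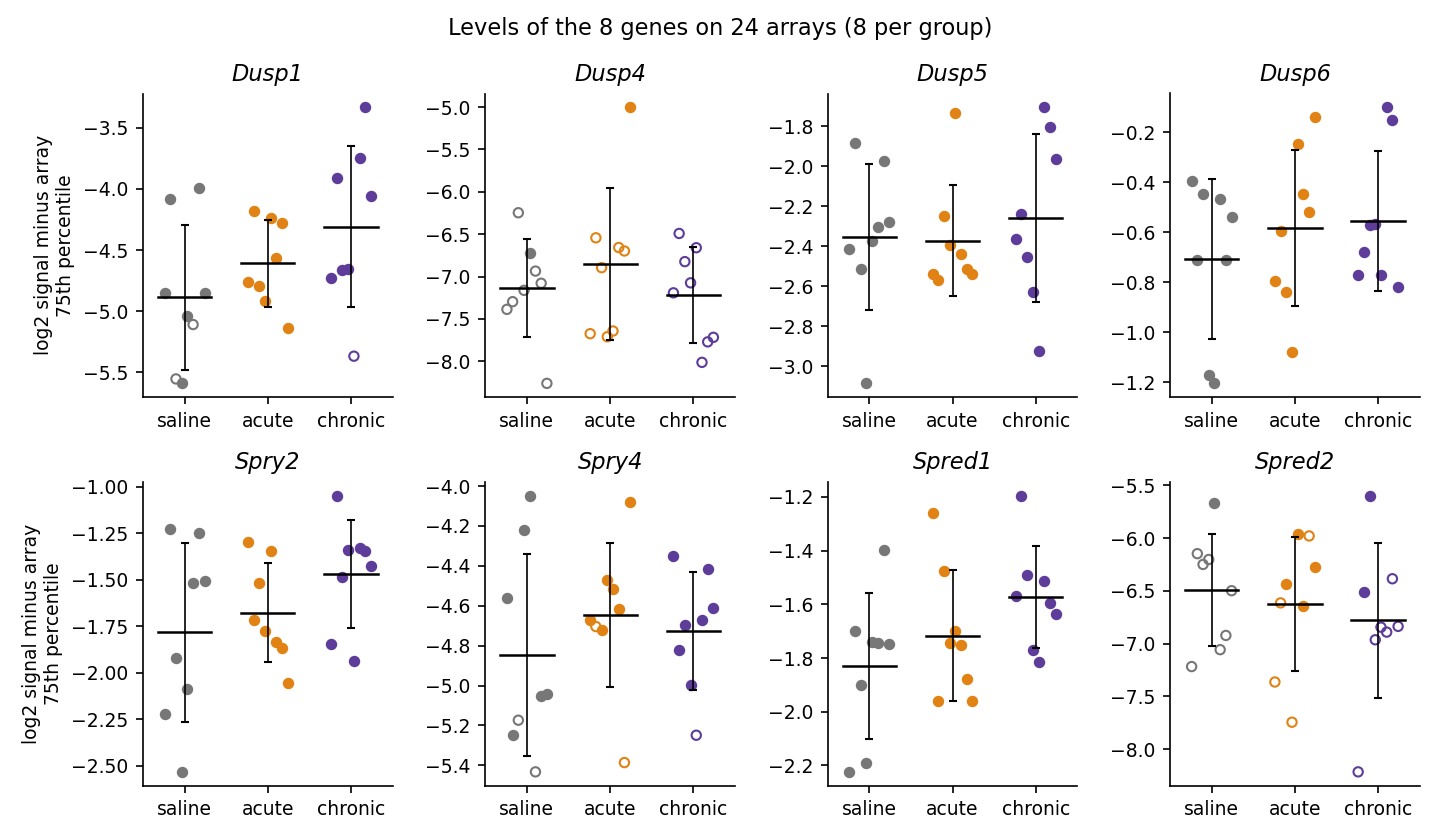
Level of each of the 8 genes (log2 signal minus the array's 75th percentile) on 8 saline, 8 acute and 8 chronic arrays, 1 probe per gene. Points are arrays, open where the spot was not well above background, bars are means with SD over arrays; the groups overlap for every gene, and most Dusp4 and Spred2 points are open.

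Dusp1, the immediate-early phosphatase that dephosphorylates p38 and JNK as well as ERK, had the largest SD over the 24 arrays (0.58) of the members detected on most arrays. Its probe lies at chr10:16944342-16944661 on the plus strand (rn4, as the file headers give it, a span of 320 bases). Over the 8 saline arrays it ran from -5.59 through a median of -4.95 to -3.99. The acute arrays ran from -5.14 through -4.66 to -4.18, and the chronic arrays from -5.37 through -4.36 to -3.33. The highest arrays of all were chronic replicates 7 and 6 (-3.33 and -3.75) and the lowest was saline replicate 4 (-5.59), yet chronic replicate 5 at -5.37 lay among the lowest saline arrays. The unit means were -4.94 ± 0.61 in saline, -4.53 ± 0.34 in acute and -4.32 ± 0.57 in chronic (SD, n = 6 each).

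The chronic group was 1.54-fold above saline for Dusp1 (log2 difference 0.62, SE 0.28, 95% interval of the fold 1.02 to 2.32). The limma p was 0.0412 before and 0.999 after adjustment, so the difference did not pass over all genes, and the gene ranked 451 of 20902 by p. Acute against saline gave 0.41 and chronic against acute 0.21, with the same SE. Within slides, chronic minus saline was 0.39, 0.66 and 0.73, above 0 on all 3. The probe was dim, well above background on 21 of 24 arrays with a median signal of 5.87 times the local background, and the background method mattered: with normexp correction the chronic minus saline value was -0.13 and acute minus saline -0.12. Without saline replicate 4 it was 0.49 (SE 0.29). In every run on the scanner's own background-corrected signal, each unit left out in turn included, chronic minus saline was above 0 for Dusp1.

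Dusp4, a nuclear phosphatase of ERK, was well above background on 1 saline, 1 acute and 0 chronic arrays, and no difference was computed. Its probe lies at chr16:61109868-61109927 on the minus strand. Its values ran from -8.26 to -5.00, with acute replicate 8 the highest.

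Dusp5, the nuclear phosphatase specific for ERK, was well above background on all 24 arrays (probe at chr1:259767436-259767495, plus strand, 2 spots). The saline arrays ran from -3.09 through -2.34 to -1.88, the acute from -2.57 through -2.48 to -1.74, and the chronic from -2.92 through -2.30 to -1.71. Arrays departed from the medians in both directions. The higher were acute replicate 5 at -1.74 and chronic replicates 6, 7 and 8 at -1.71, -1.80 and -1.96. Saline replicates 2 and 7 were also higher, at -1.88 and -1.97. The lower were saline replicate 4 at -3.09 and chronic replicates 5 and 4 at -2.92 and -2.63. The groups overlapped almost wholly, and group explained 2.12% of the variance over 24 arrays. Chronic minus saline was 0.11 (SE 0.20) and acute minus saline 0.05, both of which turned below 0 without saline replicate 4 (-0.02 and -0.08). The interval of the chronic against saline fold ran from 0.813 to 1.44.

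Dusp6, the cytoplasmic ERK phosphatase, was read on 10 spots of its probe (chr7:36897369-36897428, plus strand) on each array. The SD among those spots had a median of 0.0797 on an array, and the SD between arrays was 0.299, 3.75 times as large. The saline arrays ran from -1.20 through -0.62 to -0.40, the acute from -1.08 through -0.56 to -0.14, and the chronic from -0.82 through -0.62 to -0.10. Chronic replicates 6 and 7 and acute replicate 8 were highest, and saline replicates 4 and 5 lowest. The chronic and saline medians were equal at this rounding. Acute minus saline was 0.13, chronic minus saline 0.16 and chronic minus acute 0.03 (SE 0.14 each), and the chronic against saline fold lay between 0.911 and 1.37. The slides gave chronic minus saline values of -0.16, 0.47 and 0.14, in both directions.

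Spry2, a Sprouty protein that damps receptor tyrosine kinase signalling, was well above background on every array with both of its probes. On the brighter probe (chr15:90009823-90009882, minus strand) the saline arrays ran from -2.53 through -1.72 to -1.22, the acute from -2.06 through -1.74 to -1.30, and the chronic from -1.93 through -1.38 to -1.05. The lowest chronic arrays were replicates 5 and 1, at -1.93 and -1.84. The unit means were -1.79 ± 0.44, -1.65 ± 0.19 and -1.48 ± 0.19 (SD, n = 6), the saline group being the widest. Chronic minus saline was 0.31 (SE 0.17, limma unadjusted p 0.0783, adjusted p 0.999), a fold between 0.974 and 1.58. It was 0.16 without saline replicate 4, the lowest array for both probes, and 0.13 on the dimmer probe. Within slides the brighter probe gave chronic minus saline values of 0.33, 0.51 and -0.0077. The probes correlated with each other at r = 0.71 but rho = 0.34 over the 18 units.

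Spry4, another Sprouty, was well above background on 19 of 24 arrays (probe at chr18:31532750-31532809, minus strand). Its saline arrays ran from -5.43 through -5.05 to -4.05, its acute arrays from -5.39 through -4.64 to -4.08 and its chronic arrays from -5.25 through -4.68 to -4.35. Saline arrays were at both ends, replicate 5 the highest and replicate 6 the lowest. The differences from saline were 0.18 for acute and 0.20 for chronic (SE 0.20). Under normexp correction the chronic value was -0.08. Unlike Dusp1, Dusp5 and Spry2, the gene was high on saline replicate 4 (-4.22), and without it the chronic difference was 0.33.

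Spred1, which inhibits Raf activation, was well above background on all 24 arrays with its brightest of 3 probes (chr3:103250014-103250073, plus strand). That probe ran from -2.22 through -1.74 to -1.40 in saline, from -1.96 through -1.75 to -1.26 in acute and from -1.82 through -1.58 to -1.20 in chronic. The chronic group had the highest mean and the smallest spread: its unit mean was -1.58 ± 0.10 against -1.82 ± 0.27 in saline and -1.73 ± 0.18 in acute (SD, n = 6). Chronic minus saline was 0.24 (SE 0.11, limma unadjusted p 0.0506, adjusted p 0.999), a fold between 0.9995 and 1.39. The value was 0.17 without saline replicate 4. The probes disagreed, however. They correlated with each other at only r = 0.08 to 0.61 over the 18 units, the other probes gave chronic minus saline values of -0.04 and 0.04, and within slides the brightest probe gave 0.52, 0.19 and -0.04.

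Spred2, the other Spred gene (probe at chr14:100797226-100797285, plus strand), was well above background on 1 saline, 4 acute and 2 chronic arrays, and it entered the test through the acute group alone. Its arrays ran from -8.21 to -5.60, both ends being chronic. The differences from saline were 0.03 for acute and -0.25 for chronic (SE 0.34), and the chronic value turned to 0.04 without chronic replicate 1. The 95% interval of the chronic difference ran from -0.96 to 0.46.

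**Figure D2:**
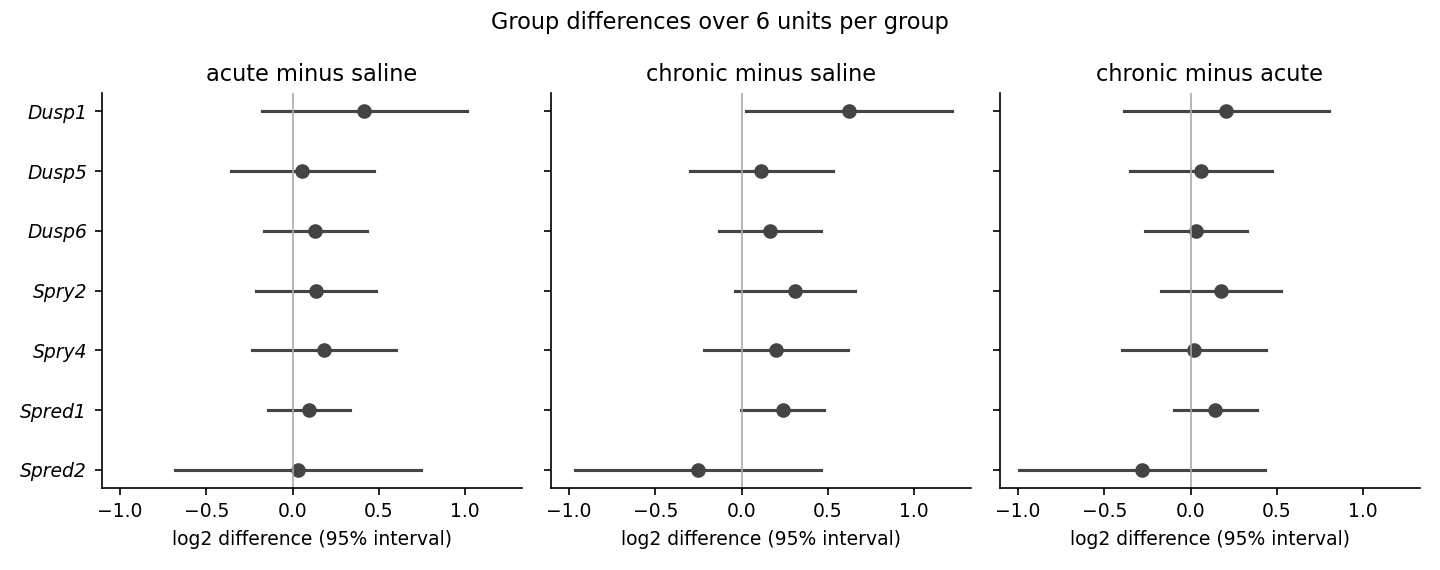
Log2 differences (points) with 95% intervals (lines) for the 7 tested genes, over 6 units per group, in the 3 comparisons. Every interval includes 0 except that of Dusp1 in chronic minus saline, which runs from 0.03 to 1.22.

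Within the family, 7 of 7 tested members were above saline in the acute group and 6 of 7 in the chronic group, but under normexp correction Dusp1 and Spred2 were below saline in acute and Dusp1, Spry4 and Spred2 in chronic. Without saline replicate 4 the counts were 5 of 7 in both groups, with Dusp5 and Spry2 below saline in acute and Dusp5 and Spred2 in chronic. Dusp4 is not in these counts, and Spred2 was tested through the acute group alone. Of all genes tested, 11005 of 20902 were higher in acute and 11552 in chronic. These members are correlated across units, as described next, so the count is not 7 separate observations, and it was not tested. Beside these differences, all 12 pan-striatal markers were also above saline in both MDPV groups (median 0.23 and 0.21), none called. When saline replicate 4 was left out, 6 of the 12 were above saline in acute and 3 in chronic (median 0.01 and -0.03). The thalamic, septal and pallidal list was lower for 6 of its 7 measured genes in acute and 7 of 7 in chronic (median -0.41 and -0.55). Without saline replicate 4 it was lower for 4 and 5 of the 7 (median -0.06 and -0.27). The list levels, each the mean over its measured genes, overlapped between groups. The pan-striatal list ran from 1.41 to 3.00 in saline, 2.39 to 2.88 in acute and 2.10 to 2.84 in chronic. The choroid plexus and ependymal list was lower for 6 of 6 measured genes in both MDPV groups (median -0.98 and -1.40), and it ran from -4.65 to -0.78 in saline, -4.68 to -2.37 in acute and -5.29 to -2.16 in chronic. For the other lists the chronic minus saline medians were 0.57 for cortical excitatory neurons, 0.09 and 0.15 for direct- and indirect-pathway neurons, -0.76 for hypothalamus, -0.11 for astrocytes, -0.09 for oligodendrocytes, -0.10 for oligodendrocyte precursors, -0.10 for microglia, 0.06 for endothelial and mural cells and -0.16 for blood. With saline replicate 4 left out, these medians were 0.13 for cortical excitatory neurons, -0.0024 and -0.09 for direct- and indirect-pathway neurons, -0.04 for hypothalamus, -1.05 for choroid plexus and ependyma, -0.08 for astrocytes, 0.02 for oligodendrocytes, 0.00055 for oligodendrocyte precursors, -0.08 for microglia, 0.07 for endothelial and mural cells and -0.12 for blood. The part of these lists in the members' differences was not tested.

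Arrays that share a title letter were closer to each other for some members and farther apart for others. The median difference between arrays of a shared letter was 0.37 for Dusp1 and 0.19 for Dusp5, against 0.61 and 0.33 between other arrays of the same group. For Dusp6 and Spry2 it was larger, 0.56 and 0.74 against 0.28 and 0.35. For Spred1 and Spry4 it was 0.30 and 0.45 against 0.24 and 0.34, and for Spred2 0.60 against 0.64. These medians rest on 6 shared pairs per gene and 78 others. Over all genes the correlation of arrays within a letter, as limma estimated it, was -0.37. Fits with the 24 arrays as separate samples also called no gene.

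Some members varied together from array to array. Across the 18 units, 4 of 21 pairs of tested members correlated with an adjusted permutation p under 0.05 (two-sided, 100000 permutations, Benjamini-Hochberg over 21 pairs). Spry2 and Spred1 had r = 0.77 (adjusted p 0.00595, rho 0.63), Dusp5 and Spry2 r = 0.72 (0.00595, rho 0.46), Dusp1 and Dusp5 r = 0.72 (0.00595, rho 0.48) and Dusp1 and Spry2 r = 0.67 (0.0163, rho 0.63). No rank correlation passed after adjustment, the smallest adjusted permutation p being 0.0663. Spry2 and Spred1 were each read from their brightest probe here, and their other probes, which followed it imperfectly, were not tested. All 4 pairs were positive within each of the 3 slides. Here and below, an r within a slide is over its 8 single arrays and not over units. Spry2 and Spred1 had 0.83, 0.80 and 0.89, and Dusp1 and Dusp5 0.53, 0.87 and 0.73. Dusp5 and Spry2 had 0.46, 0.71 and 0.91, and Dusp1 and Spry2 0.66, 0.76 and 0.69. The arrays of each shared letter were on different slides, so the slides may not be independent repeats. Over the units, the 4 pairs stayed positive after group means were removed (0.71, 0.75, 0.74 and 0.59 in the same order).

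These relations leaned on the extreme units. Without the 2 units farthest from the median they were 0.55, 0.52, 0.50 and 0.51 in the order just given, and none passed after adjustment (adjusted permutation p 0.251 for each). Without saline replicate 4, the lowest unit for several members, they were 0.62, 0.63, 0.56 and 0.56 and again none passed (0.0939 to 0.108). How rare such an r was depended on the gene taken as reference. Among genes with a symbol, 3.74% correlated with Spry2 at least as highly as Spred1 did, and 0.856% with Spred1 at least as highly as Spry2 did. For Dusp1 and Dusp5 the shares were 0.220% and 0.534%, for Dusp5 and Spry2 0.502% and 5.73%, and for Dusp1 and Spry2 0.738% and 8.68%.

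Dusp6 followed the other phosphatases less surely. Its r was 0.55 with Dusp5, 0.54 with Spry2 and 0.48 with Dusp1 over all units, but 0.19, 0.08 and -0.02 without the farthest units. On slide 2 the same pairs were 0.61, 0.79 and 0.74, while on slides 1 and 3 all were below 0, from -0.68 to -0.02. With Spred1 its r was 0.17. The 11 pairs that include Spry4 or Spred2 ran from -0.24 to 0.08, and none passed.

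**Figure D3:**
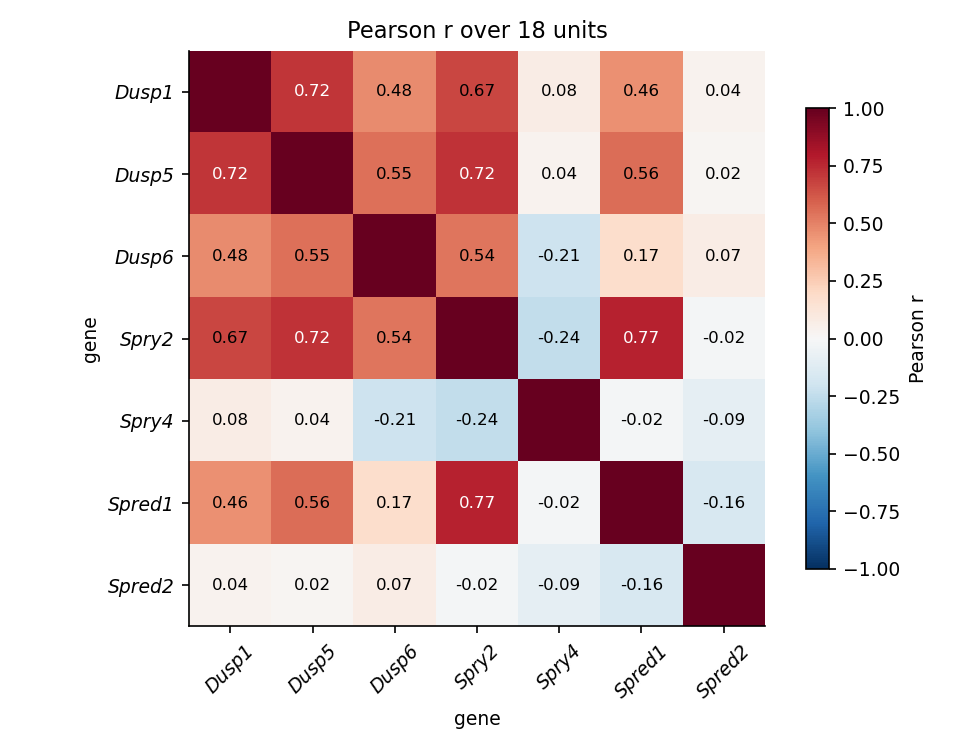
Pearson r between the 7 tested genes over 18 units, with colour from -1 (blue) to 1 (red) and r printed in each cell. Dusp1, Dusp5, Spry2 and Spred1 have r from 0.46 to 0.77 with each other. Dusp6 has r from 0.48 to 0.55 with Dusp1, Dusp5 and Spry2 and 0.17 with Spred1. The Spry4 and Spred2 rows are pale.

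The genes most like each member were found among 12732 other genes with a symbol, by Pearson r over the 18 units. They were chosen for their r, so no test is given. Dusp5 was nearest to Nr4a1, an activity-induced nuclear receptor (r = 0.90, rho 0.90), to Tbc1d16 (0.88) and to Arc, an activity-induced synaptic gene (0.88, rho 0.90). With saline replicate 4 left out these were 0.85, 0.84 and 0.84, and for Nr4a1 and Arc every slide was positive, from 0.65 to 0.96. After group means were removed they were 0.91 for Nr4a1 and 0.88 for Arc, so the units high in Dusp5 were high in Nr4a1 and Arc within treatment groups too. Dusp6 was nearest to Ier5, an immediate early gene (r = 0.86, and 0.76 to 0.83 within slides). Next were Igfbp4, an insulin-like growth factor binding protein (0.84), and Zfpm1, a GATA cofactor (0.83). On the 3 slides Igfbp4 had 0.43, 0.93 and 0.40 and Zfpm1 0.24, 0.67 and 0.70. Without saline replicate 4 Ier5, Igfbp4 and Zfpm1 had 0.78, 0.75 and 0.74.

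**Figure D4:**
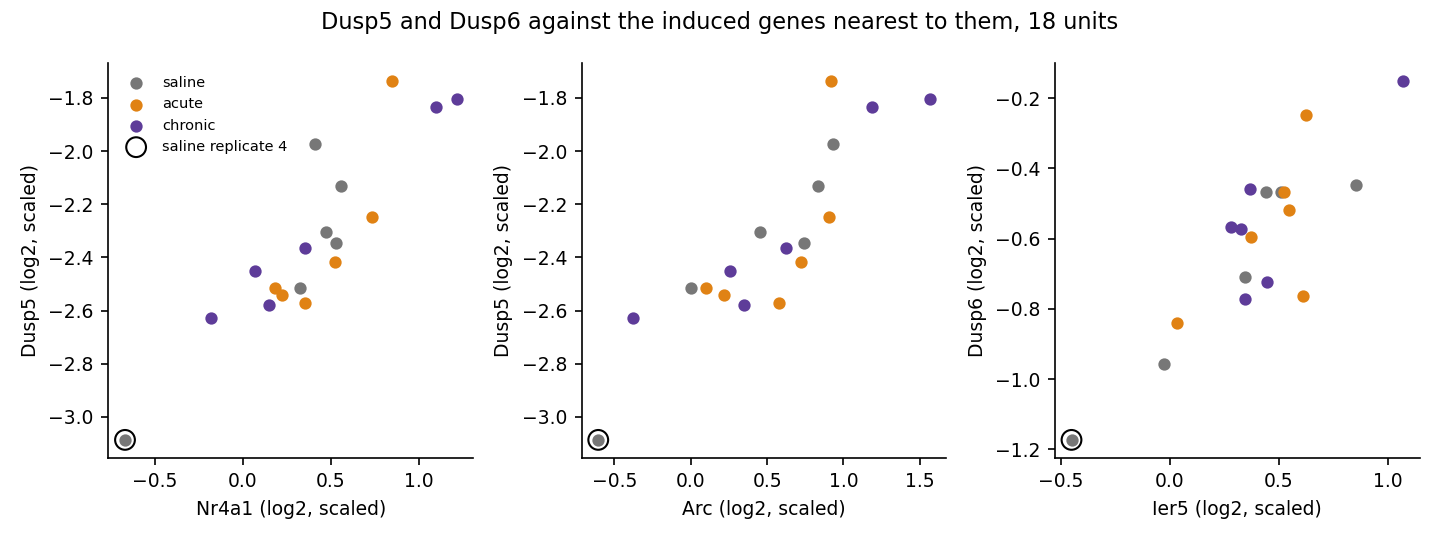
Dusp5 against Nr4a1 and Arc, and Dusp6 against Ier5, as log2 signal minus the 75th percentile, 18 units coloured by group. The points rise together (r = 0.90, 0.88 and 0.86) with the groups mixed along the line, and saline replicate 4 (ringed) is at the low end of each plot.

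Spry2 had the closest neighbours of all: the zinc finger gene Zfp148 (r = 0.95), the co-chaperone Dnajb5 (0.94) and the junctophilin Jph4 (0.94), which stayed between 0.86 and 0.89 without saline replicate 4. Spred1 was nearest to Dhx40, Armcx3 and Pitrm1 (0.88, 0.88 and 0.87). Dusp1 was nearest to the nuclear pore gene Nup62, to Hmg20b and to the Mediator subunit Med8 (0.82, 0.79 and 0.79), of which Nup62 had r of -0.00057 and -0.05 on slides 1 and 2. Spry4 was nearest to Gk, Mitd1 and Metap1d (0.82, 0.81 and 0.79), and Spred2 to St3gal3, Ccdc167 and Tmem95 (0.73, 0.72 and 0.70). Mitd1 had 0.08 with Spry4 on slide 1. Without the 2 farthest units the Spred2 values were 0.49, 0.62 and 0.18. St3gal3 had 0.80, 0.35 and 0.31 with Spred2 on the 3 slides. Without saline replicate 4 the neighbours of Spred1, Dusp1, Spry4 and Spred2 had r from 0.73 to 0.86.

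A list of 16 transcripts induced through ERK placed the members more fully. The median r of Dusp5 with these 16 was 0.45, with 12 positive, against a median of 0.02 with all genes. It was highest for Nr4a1 and lowest for Ier3 (-0.46). Dusp1 had a median of 0.43, highest with Arc (0.73), and 13 positive. Spry2 had a median of 0.48, with 11 positive. It was highest with Fosb (0.79), also reached 0.77 with Phlda1 and 0.76 with Junb, and was lowest with Myc (-0.46). Spred1 had a median of 0.33, with 11 positive, highest with Junb (0.78) and lowest with Fosl2 (-0.44). Dusp6 had 0.34, highest with Etv5, an ETS factor downstream of ERK (0.59), and lowest with Myc (-0.56). Spry4 and Spred2 had medians of -0.07 and -0.05. Of all genes with a symbol, 51.0%, 52.6%, 55.8% and 55.0% correlated positively with Dusp1, Dusp5, Spry2 and Spred1. Without saline replicate 4 the medians were 0.33 for Dusp1, 0.47 for Dusp5, 0.29 for Spry2, 0.16 for both Dusp6 and Spred1, 0.14 for Spry4 and 0.02 for Spred2. Spry4 and Spred2 thus changed sign. Dusp6 with Etv5 was then 0.34, its highest gene being Ier2 (0.54), and Spry2 was highest with Junb (0.75), Fosb being at 0.60. All of these genes were read on the same arrays and share each array's scale.

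The members also moved with markers of tissue composition. Of 91 relations between 7 members and 13 marker lists, 9 passed an adjusted permutation p of 0.05 by r, and 0 by rank (smallest adjusted p 0.193). Dusp5 and Spred1 correlated positively with the 12 pan-striatal markers (r = 0.69 and 0.71, adjusted permutation p 0.0443 each) and negatively with the thalamic, septal and pallidal list (r = -0.64 and -0.68). Both correlated with indirect-pathway markers (0.66 and 0.64), and Spred1 with direct-pathway markers (0.67). Dusp6 had r = 0.67 with cortical excitatory markers and -0.65 with the thalamic list. Spry2 had r = 0.65 with the pan-striatal list, at an adjusted permutation p of 0.0702.

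All 9 relations were weaker without saline replicate 4. Dusp5 and Spred1 had r of -0.40 and -0.46 with the thalamic list and 0.44 and 0.39 with indirect-pathway markers, and Spred1 had 0.45 with direct-pathway markers. Without the 2 farthest units these values were -0.32, -0.32, 0.43, 0.25 and 0.34. Leaving out the same replicate, Dusp6 had 0.48 with the cortical list and -0.38 with the thalamic list, and 0.25 and -0.43 without the farthest units. Its thalamic r was 0.31, -0.69 and 0.22 on the 3 slides, so only slide 2 had the sign found over all units.

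With the pan-striatal list and without saline replicate 4, Dusp5 and Spred1 had r of 0.50 and 0.52 with the pan-striatal list and Spry2 had 0.20. Without the 2 farthest units the values were 0.43, 0.57 and 0.52. Within slides Dusp5 gave 0.70, 0.54 and 0.67 and Spred1 0.48, 0.77 and 0.62. The part of tissue composition in the covariation of the members was not tested.

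**Figure D5:**
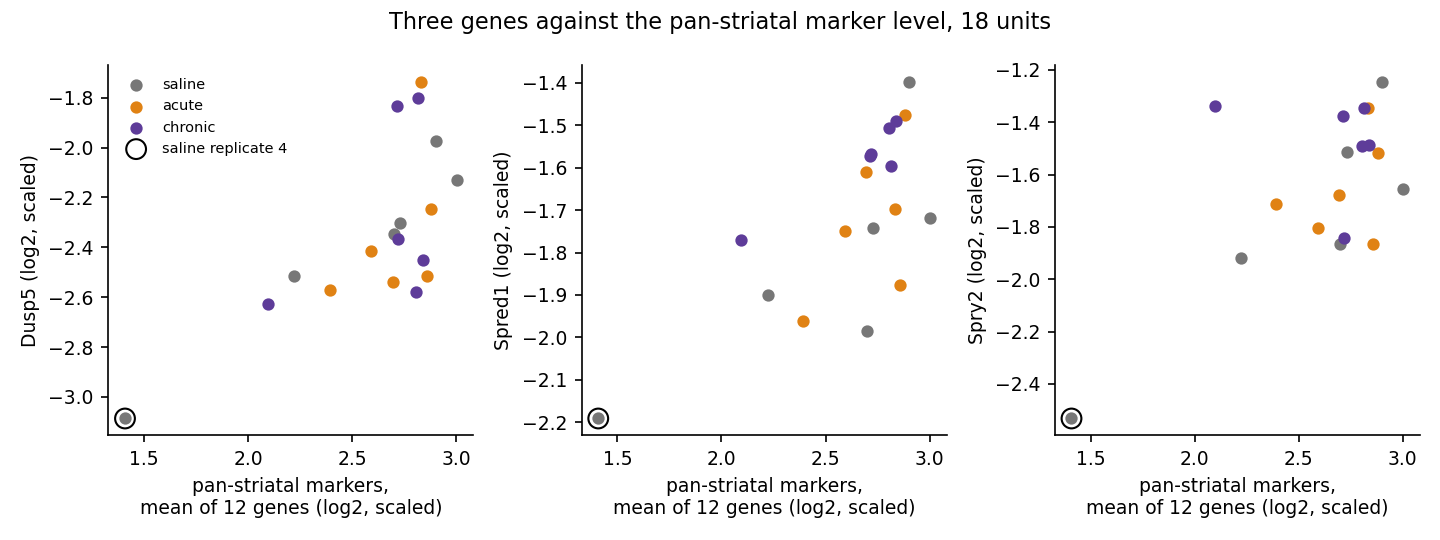
Dusp5, Spred1 and Spry2 against the mean of 12 pan-striatal marker genes, as log2 signal minus the 75th percentile, 18 units coloured by group. The ringed point, saline replicate 4, lies far to the left at 1.41 and low on each plot, and the other units rise more loosely.

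No gene of the wider ERK pathway was called either. All 80 of the other pathway genes listed were measured and none passed in any comparison. Of these, 49 were higher in acute than saline, 50 in chronic than saline and 45 in chronic than acute, with medians of 0.02, 0.03 and 0.02 against 0.01, 0.02 and 0.01 over all genes. Among 10 other dual-specificity phosphatases, Dusp3, Dusp8 and Dusp14 had chronic minus saline differences of 0.11, 0.06 and 0.18. Among 11 other feedback genes, Spry1 gave -0.03 and Ptpn5, the striatum-enriched phosphatase of ERK, gave 0.02. By list, the chronic values were above saline for 8 of these 10 phosphatases and 5 of these 11 feedback genes, 6 of 14 receptors and adaptors, 7 of 9 Ras and exchange factor genes, 5 of 9 cascade kinase genes, 8 of 11 ERK effectors and 11 of 16 induced transcripts.

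Upstream, the receptors Ntrk2 and Fgfr1 gave chronic minus saline differences of -0.08 and -0.15. The Ras exchange factors Rasgrf1 and Rasgrp2 gave 0.02 and 0.20, and Hras gave 0.14. In the cascade, Braf gave 0.08, Map2k1 0.20 and Mapk3 -0.08. Of the 80, 2 had an unadjusted limma p under 0.05 for chronic against saline, where 2.86% of all 20902 genes did. The 2 are thus no more than the share over all genes. They were Rps6ka2, an ERK-activated ribosomal S6 kinase (0.30, SE 0.13, limma p 0.0315), and Erbb4 (-0.40, SE 0.15, limma p 0.0178). Erbb4 is a receptor named here after its value was seen. Both had an adjusted limma p of 0.999. The kinase Rps6ka5 gave 0.05 and the factor Creb1 -0.07. The induced transcripts Egr1, Fos, Arc, Etv5 and Phlda1 gave 0.14, -0.12, 0.21, 0.15 and 0.36, none past the test. For Arc, saline replicate 4 was the lowest of all units at -0.61, where the other saline units ran from 0.0011 to 0.93. The differences of these pathway genes are not given without that replicate, so how far they lean on it is not shown.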

How the data were processed

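Total RNA from the left dorsal striatum was labelled with Cy3 and hybridised to 1-colour Agilent arrays, per the labels. Spot intensities were extracted and background-subtracted with Agilent Feature Extraction 10.7, per the file headers and the submitters' processing notes. The deposited value table holds the authors' own normalized log2 values and served as an alternative. From the processed signal, log2 minus the array's 75th percentile over non-control spots was computed here, outlier spots were dropped and the spots of a probe averaged. A probe was kept if well above background on at least 0.5 of the arrays of 1 group, and a gene was read from its brightest kept probe. limma 3.58.1 in R 4.3.3 (lmFit, eBayes) was fitted to all 20902 genes over 18 units with Benjamini-Hochberg adjustment at 0.05, and was tested on simulated data. Correlations used 100000 permutations, adjusted over 21 pairs of members because Dusp4 was not tested. Replicate numbers follow the order of deposit and only name arrays. The slide was read from the array headers, and each of the 3 slides held all groups. Named genes were the members, 24 pathway genes and 9 markers whatever their values, and the 3 nearest genes of each member. Some of the pathway genes are not reported here. The members and lists were chosen with earlier results of these data known. Promoter sequences are RefSeq's, on GRCr8. Probe positions are those of the files, on rn4, and whether a probe lies in an exon or UTR was not analysed here. Marker lists without saline replicate 4 were added after seeing the data.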

Additional observations from a re-analysis of the deposited data

Results flagged for a closer look

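In 3 of 21 groups of 6 units (7 genes in 3 groups), the lowest unit lay far from the others by Dixon's 95% limit, which chance alone passes in about 1 group in 20. For Spry2 it was chronic replicate 1, at -1.84 with the nearest unit at -1.49. For Spry4 it was acute replicate 7, at -5.39 with the nearest at -4.72, where the spot was not well above background. For Spred1 it was chronic replicate 4, at -1.77 with the nearest at -1.60.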

How the results depend on the processing

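No alternative called a gene in any comparison, each unit left out in turn included; before adjustment the counts ran from 200 to 715 for acute against saline, 391 to 1571 for chronic against saline and 378 to 2052 for chronic against acute, over the alternatives that kept every unit. No difference of a member passed under any alternative, so the changes of sign below are changes of values that were not called, and the cause of none was tested. Under normexp background correction, Dusp1 turned to -0.12 (acute minus saline), -0.13 (chronic minus saline) and -0.014 (chronic minus acute), Spry4 to -0.084 (chronic minus saline) and -0.12 (chronic minus acute), and Spred2 to -0.17 (acute minus saline). Spred2 chronic minus saline turned to 0.035 under quantile normalization and 0.059 with the authors' values. Spry4 chronic minus acute turned to -0.014 under quantile normalization, -0.0031 with the authors' values, -0.0027 with the percentile over probes (chosen after seeing the data), and -0.080, -0.15 and -0.080 over 24 arrays as separate samples, with the letter as a random block and with slide as a block. In the same order, Dusp5 acute minus saline was -0.019, -0.068 and -0.092, and Spred2 acute minus saline -0.13, -0.24 and -0.21. Other probes gave -0.026, -0.039 and -0.014 for Spred1 (acute and chronic minus saline, chronic minus acute) on the second probe, -0.18 for chronic minus acute on the third, and -0.090 for Spry2 chronic minus acute. With each unit left out in turn, acute minus saline ran from -0.084 to 0.14 for Dusp5, -0.076 to 0.17 for Spred2 and -0.014 to 0.24 for Spry2. Chronic minus saline ran from -0.024 to 0.20 for Dusp5 and -0.49 to 0.035 for Spred2. Chronic minus acute ran from -0.035 to 0.18 for Dusp5, -0.047 to 0.10 for Dusp6, -0.12 to 0.089 for Spry4 and -0.52 to 0.0028 for Spred2. The 4 called correlations kept their call under quantile normalization, normexp, the authors' values, 24 arrays and group means removed, and lost it without the 2 farthest units and without saline replicate 4 (values in the report). Under normexp, 5 more of the 10 pairs reported passed. They were Dusp1 with Dusp6 and with Spred1 (0.57 each), Dusp5 with Dusp6 and with Spred1 (0.60 each) and Dusp6 with Spry2 (0.62). The correlation of Dusp1 and Dusp6 was -0.023 without the farthest units, and that of Dusp6 and Spred1 was -0.029 over 24 arrays, -0.35 without the farthest units and -0.23 without saline replicate 4. These alternatives were computed and adjusted over all 21 pairs. They are reported for the 10 pairs of Dusp1, Dusp5, Dusp6, Spry2 and Spred1, a choice made after seeing the data. The precision is limited by 6 units a group and by signals near background for Dusp1, Dusp4, Spry4 and Spred2.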
